A study of Drosophila melanogaster with 2 samples.

Results

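The genes described here encode the initiation and elongation factors of cytoplasmic translation. They were chosen by name, as every gene in the dm6 annotation whose symbol starts with eIF or eEF, which gave 52 of 13945 protein-coding genes on the 6 chromosome arms. All 52 were found in RefSeq, where 44 carry the product name of a translation initiation factor and 8 that of an elongation factor. Where CG15073 was found at these genes was read from chromatin immunoprecipitation and sequencing (ChIP-seq), which lists the places where DNA held by a chosen protein piles up as peaks. The flies were a transgenic line with a stable CG15073 fusion that carries GFP at the C terminus, and chromatin was pulled down through the GFP from whole embryos of both sexes aged 0 to 24 h. There was 1 group of 2 biological replicates, numbered 3 and 4, so each comparison is between genes or between replicates, and no test between conditions could be made. The sources used here do not state which promoter drives the transgene, and whole embryos mix all tissues and stages of that span.

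Initiation factors bring the initiator tRNA, the small ribosomal subunit and the capped end of an mRNA together, find the start codon and then let the large subunit join. Elongation factors deliver charged tRNAs to the ribosome and move it along the mRNA. Nearly every growing cell needs these proteins, and embryos translate large stores of maternal mRNA, but several fly factors have paralogs used mainly in the testis.

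The authors kept 1445 dm6 peaks after the irreproducible discovery rate (IDR) step, and these are called IDR peaks. That step is meant to retain peaks that rank alike in both replicates. The authors also deposited relaxed lists that mix peaks with background, of 23030 peaks for both replicates pooled and of 30000 peaks for each replicate. The IDR peaks were the 1445 strongest of the pooled list, so being listed does not show that a peak ranked alike in both. Each peak has a summit and a signal, which is the authors' own value for peak strength on a scale that is not stated, and rank 1 is the strongest peak of a list. A gene was counted when a summit lay within 500 bp of any of its annotated start sites or inside the gene. Offsets from a start site are negative upstream. The lists do not give read depth, and the 95% intervals (exact binomial) cover the counting of genes only, which are not replicates.

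CG15073 was found at 5 of the 52 factor genes by an IDR summit, a share of 9.62% (interval 3.20 to 21.0). The share of the other 13893 protein-coding genes was 9.36%, so the factor genes stood at the background. With start sites alone, 4 of 52 factor genes had an IDR summit (7.69%, interval 2.14 to 18.5), against 6.74% of other protein-coding genes. The 5 genes were eIF6, eIF4EHP, eIF3c, eIF5B and eEF1gamma, and each was also among the 1445 strongest peaks of replicate 3 and of replicate 4. Being among the strongest of both replicates held for 9.62% of factor genes (interval 3.20 to 21.0), against 6.43% of other protein-coding genes, which lies inside the interval. Close to the limit of 1445 were eIF5B (rank 1437 in replicate 3) and eEF1gamma (rank 1443 in replicate 4). When each summit was given only to the gene of its nearest start site, 2 factor genes were left, eIF3c and eEF1gamma (3.85%), against 6.52% of the other genes.

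The sequence under the summits is shown for the 3 of these genes whose windows can be printed, since later results turn on them. Each window reaches up to 100 bp to either side of the summit, is cut where an annotated UTR begins, and is read 5′ to 3′ on the strand of the gene from the Release 6 assembly (dm6). Capitals mark matches on either strand to any of 10 short motifs. The windows are chr3R:29219998-29220171 on the plus strand, and chr3R:24109145-24109335 and chr3L:3432698-3432898 on the minus strand. The summit is base 101 of the first, base 91 of the second and base 101 of the third.
eEF1gamma: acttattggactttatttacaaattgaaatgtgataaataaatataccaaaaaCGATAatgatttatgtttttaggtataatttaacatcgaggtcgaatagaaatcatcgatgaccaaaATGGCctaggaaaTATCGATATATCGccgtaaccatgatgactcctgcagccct
eIF4EHP: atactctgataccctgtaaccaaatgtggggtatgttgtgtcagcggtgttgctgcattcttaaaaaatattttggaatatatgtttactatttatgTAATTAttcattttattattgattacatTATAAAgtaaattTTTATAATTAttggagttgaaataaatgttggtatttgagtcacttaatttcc
eIF5B: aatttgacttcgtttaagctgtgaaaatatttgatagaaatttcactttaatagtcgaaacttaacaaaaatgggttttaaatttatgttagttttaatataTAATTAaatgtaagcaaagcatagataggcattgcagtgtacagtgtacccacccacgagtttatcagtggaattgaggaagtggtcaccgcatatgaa
In the eEF1gamma window the capitals stand for TATCGATA, for the shorter motif CGATA, and once for GCCAT on the opposite strand. In that of eIF4EHP they stand for TAATTA and, once overlapping it, for TATAAA. The window of eIF5B holds TAATTA beside its summit. TATCGATA, the DNA replication-related element bound by DREF at fly housekeeping promoters, holds CGATA on both strands, so the 2 motifs overlap. The GC content of the printed bases was 32.2% in the eEF1gamma window, 26.2% in that of eIF4EHP and 31.3% in that of eIF5B, against a median of 35.3% over all 1445 IDR windows. The eEF1gamma and eIF4EHP windows are cut, to 174 and 191 bases, which limits that comparison.

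**Figure D1:**
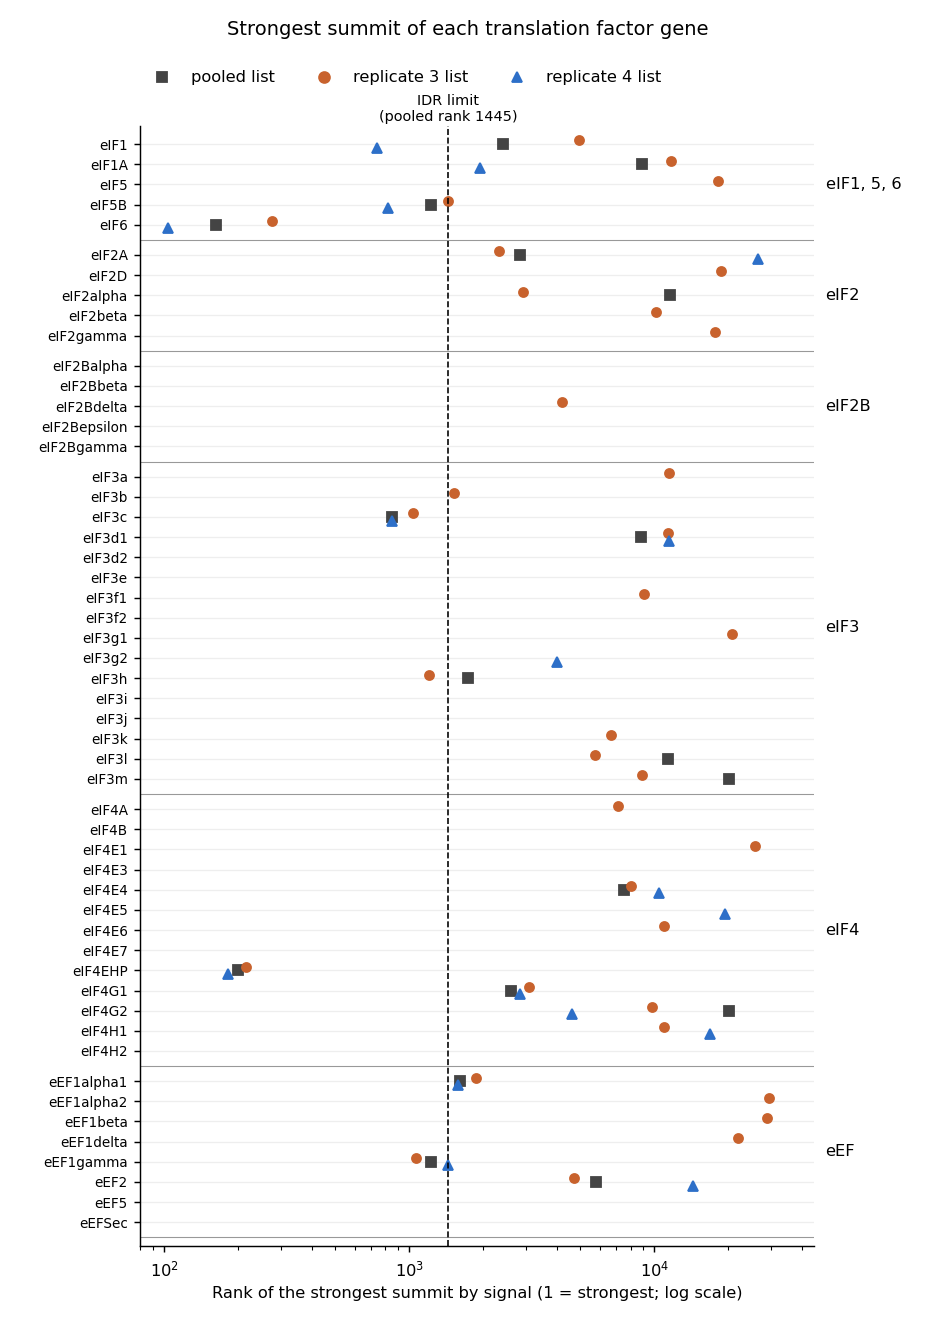
Rank of the strongest summit (log scale, 1 is the strongest) of each of the 52 factor genes in the pooled list and in each replicate list, grouped by role, and a gene without a symbol in a row has no summit in that list. The 5 genes left of the dashed line in the pooled list have IDR peaks, and 15 genes have no summit in any list.

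Genes for start codon choice and subunit joining (eIF1, eIF1A, eIF5, eIF5B and eIF6) held 2 of the 5 IDR peaks, and that of eIF6 was the strongest of the 5. The gene eIF6 encodes a factor that binds the large subunit and keeps it from joining too early. It lies at chr2R:23849246-23850301 on the minus strand, and its IDR peak (chr2R:23850321-23850506) had its summit at −116 bp from the start site. The signal there was 238 in the pooled list, 103 in replicate 3 and 126 in replicate 4, with ranks of 163, 275 and 104. The replicate summits lay 12 bp and 6 bp from the pooled one, so both replicates placed it within 12 bp. The summit falls in an intron of ytr and in an exon of asRNA:CR45928, whose start site lies 87 bp away and is the nearest of all.

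The other IDR peak of this role was at eIF5B, which encodes the GTPase that promotes subunit joining (chr3L:3428658-3460977, minus strand). It lay deep in an intron, 27805 bp downstream of the nearest eIF5B start site, and no other gene covers it. The signal was 72.5 in the pooled list, 41.7 in replicate 3 and 37.3 in replicate 4, and the ranks were 1224, 1437 and 817. The replicate 4 summit was 2 bp away and that of replicate 3 was 123 bp away. The nearest start site of another gene was that of sty, from which the summit lay at −7863 bp. At its own start, eIF5B had a weaker pooled summit in the 5′ UTR with a signal of 56.1 (rank 1942), which stayed outside the IDR list, and armi and CG46463 have start sites near that of eIF5B. A gene of this role without an IDR peak, eIF1, encodes a factor that guards the choice of start codon and had a pooled signal of 49.5 (rank 2411) at −317 bp. Replicate 4 had a signal of 38.9 (rank 742) at −307 bp, whereas both replicate 3 summits lay downstream of the start, the stronger with 23.8 (rank 4930) at 52 bp. The 2 replicates thus placed eIF1 summits on opposite sides of the start. RpL28 also has a start site within 500 bp of that of eIF1. Of the remaining genes of this role, eIF1A, whose product works beside eIF1, had a pooled rank of 8909 and eIF5 had a summit in replicate 3 alone (rank 18226).

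Among the 13 genes of cap-binding and helicase factors, eIF4EHP had the IDR peak. It encodes a cap-binding protein that competes with eIF4E and represses chosen mRNAs in the early fly embryo. The gene lies at chr3R:24063077-24108960 on the minus strand, and its IDR peak (chr3R:24109040-24109449) had the summit at −285 bp from its start site. The signal was 206 in the pooled list, 121 in replicate 3 and 88.2 in replicate 4, with ranks of 201, 215 and 182. Replicate 4 placed the summit 15 bp from the pooled one, and replicate 3 had 2 summits within 500 bp, the stronger of them 97 bp away. The summit was closer to CG18428, 91 bp upstream of a start site of that gene on the opposite strand. None of the 12 other genes named eIF4 had an IDR peak, where 9.36% of other protein-coding genes had one, so few would be looked for among 12. The main cap-binding gene eIF4E1 had a summit in the replicate 3 list alone, with a signal of 12.2 (rank 25880), and so did the helicase gene eIF4A, with a signal of 20.9 (rank 7092). The scaffold gene eIF4G1 had a pooled signal of 47.9 (rank 2594) in an intron, 7525 bp from its start. Replicate 4 had its strongest eIF4G1 summit there as well (rank 2835, at 7517 bp), but that of replicate 3 (rank 3088) lay in the 5′ UTR at 322 bp. Of the other eIF4E paralogs, eIF4E3 and eIF4E7 had no summit in any list.

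The scaffold complex eIF3, which holds the small subunit on the mRNA, is the largest group here with 16 genes, and 1 of them, eIF3c, had an IDR peak. This core subunit gene lies at chr2R:17665678-17669275 on the plus strand. Its summit lay 44 bp upstream of the start site, in the peak chr2R:17665429-17665838, and the signal was 88.3 in the pooled list, 49.9 in replicate 3 and 36.5 in replicate 4. The ranks were 851, 1038 and 847, and the replicate summits lay 45 bp and 35 bp away, to either side. The nearest start site of another gene, CCHa1-R, put the summit at −566 bp. The subunit gene eIF3h fell just outside the IDR list, with a pooled signal of 59.7 (rank 1738) 321 bp downstream of a start site. It ranked 1208 in replicate 3, with a signal of 45.8 at 326 bp, and had no summit in replicate 4. Another subunit gene, eIF3b, also had its summits in replicate 3 alone, the strongest with a signal of 40.5 (rank 1519). It lay at −485 bp from the eIF3b start, close to the limit of 500 bp, and Patronin has a start site in reach as well. By list, 5 of the 16 had a pooled summit (49.7% of other protein-coding genes did), 10 a replicate 3 summit (59.5%) and 3 a replicate 4 summit (48.7%). These percentages take in genes of all lengths, while the eIF3 genes had a median length of 1831 bp. Of other genes under 2 kb, 29.7% had a pooled summit, 39.9% a replicate 3 summit and 29.2% a replicate 4 summit. From 2 to 5 kb those shares were 51.2%, 65.8% and 48.3%. No summit in any list was found at 5 of the eIF3 genes, eIF3d2, eIF3e, eIF3f2, eIF3i and eIF3j, and 29.1% of other genes had none in either replicate list.

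Of the 8 elongation factor genes, eEF1gamma had the IDR peak. It encodes a subunit of the complex that recharges the tRNA-delivering GTPase, and it lies at chr3R:29220172-29222109 on the plus strand. The summit lay 74 bp upstream of the start site in the peak chr3R:29219893-29220302, and the signal was 72.2 in the pooled list, 49.1 in replicate 3 and 28.7 in replicate 4. The ranks were 1231, 1065 and 1443, which put it near the end of the IDR list, and the replicate summits lay 65 bp and 49 bp from the pooled one. The gene of the GTPase itself, eEF1alpha1, came next with a pooled signal of 62.2 (rank 1617), below the lowest IDR signal of 66.5. The replicate ranks were 1878 in replicate 3 (at −24 bp) and 1577 in replicate 4 (at −128 bp), against −126 bp in the pooled list. A start site of ERp60 lies within 500 bp of that of eEF1alpha1. The translocation factor gene eEF2 had a pooled signal of 35.2 (rank 5774) at −147 bp. A paralog of eEF1alpha1, eEF1alpha2, had a summit in the replicate 3 list alone (rank 29289). Neither eEF5 nor eEFSec, the selenocysteine-specific factor gene, had a summit in any list.

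The genes of initiator tRNA delivery (eIF2 with eIF2A and eIF2D) and of the exchange factor eIF2B had no IDR peak. An IDR summit was found at 9.36% of other protein-coding genes and at 4.22% of those under 2 kb. Groups of 5 genes are too few to tell such shares from none. All 5 delivery genes had a summit in the replicate 3 list, as did 59.5% of other protein-coding genes, and 1 of 5 had one in replicate 4, against 48.7%. The exception, eIF2A, had a signal of 45.9 (rank 2845) in the pooled list, 32.3 (rank 2324) in replicate 3 and 12.5 (rank 26510) in replicate 4. The gene of the regulated subunit, eIF2alpha, had its strongest replicate 3 signal of 29.4 (rank 2917) in a coding exon, 560 bp downstream of the start. The eIF2B complex reloads eIF2 with GTP, and 4 of its 5 genes had no summit in any list, while 29.1% of other protein-coding genes had none in either replicate list. The fifth, eIF2Bdelta, had 1 in the replicate 3 list with a signal of 25.3 (rank 4216), at −318 bp. The median gene length was 1899 bp for the delivery genes and 1749 bp for the eIF2B genes. Of other genes under 2 kb, 39.9% had a replicate 3 summit and 29.2% a replicate 4 summit.

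Beyond the IDR list, 13 factor genes had a pooled summit, with ranks from 1617 to 20261 and signals from 62.2 down to 23.3. Those of best rank after eEF1alpha1, eIF3h, eIF1, eIF4G1, eIF2A and eEF2 were eIF4E4 (rank 7515), eIF3d1 (rank 8847), eIF1A and eIF3l (rank 11355). In all, the relaxed pooled list reached 18 of 52 factor genes (34.6%, interval 22.0 to 49.1), against 49.7% of other protein-coding genes. At start sites the shares were 28.8% of factor genes (15 of 52) and 33.6% of other genes. Those 18 passed through a relaxed list, and their best pooled ranks had a median of 2720, against 5881 for the 6905 other genes with a pooled summit. For genes with a replicate 4 summit the medians were 2835 for factor genes and 7240 for others. In replicate 3 the order was not the same, with medians of 8007 and 7500. No summit in the pooled or either replicate list lay at 15 factor genes (28.8%), which is near the background, since 29.1% of other protein-coding genes had no summit in either replicate list. Besides the genes already named, these were eIF2Balpha, eIF2Bbeta, eIF2Bepsilon, eIF2Bgamma, eIF4B and eIF4H2, and eIF4B is the longest of the 15 at 15603 bp.

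The replicate lists diverged at the factor genes. In replicate 3, 35 of 52 factor genes had a summit (67.3%, interval 52.9 to 79.7), against 59.5% of other protein-coding genes. In replicate 4, 17 of 52 had a summit (32.7%, interval 20.3 to 47.1), against 48.7% of other genes. The interval takes in the background in replicate 3 and lies below it in replicate 4, although both lists are of the same length. That background takes in genes of all lengths. Under 2 kb, 53.6% of factor genes and 39.9% of others had a replicate 3 summit, and 21.4% and 29.2% a replicate 4 summit. From 2 to 5 kb the shares were 81.2% and 65.8% in replicate 3, and 31.2% and 48.3% in replicate 4. At start sites alone, 31 of 52 factor genes (59.6%, interval 45.1 to 73.0) stood against 44.5% of other genes in replicate 3. In replicate 4 it was 13 of 52 (interval 14.0 to 38.9) against 29.3%, so there the background lies inside the interval. The 2 sets differ in their start sites, with a single one annotated at 61.5% of factor genes and 73.5% of others. Another protein-coding gene starts within 500 bp at 40.4% of factor genes and 30.9% of others. The part of these differences in the start-site shares was not tested. A summit in replicate 3 but not in replicate 4 was found at 20 factor genes (38.5%), against 22.1% of other genes, and the reverse at 2 (3.85%), eIF3g2 (rank 4011) and eIF4E5 (rank 19381), against 11.4%. The strongest replicate 3 signals of those 20 factor genes had a median of 18.0 and spanned 11.5 to 45.8. That median was 17.1 for the other genes with a summit in replicate 3 only, and 15.7 over all peaks of that list. Of the 20, 4 were among the 5000 strongest peaks of replicate 3, against 19.9% of the other genes with a summit in that replicate only. Read depth and the share of background in each replicate list are not known, and their part in the difference was not tested.

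**Figure D2:**
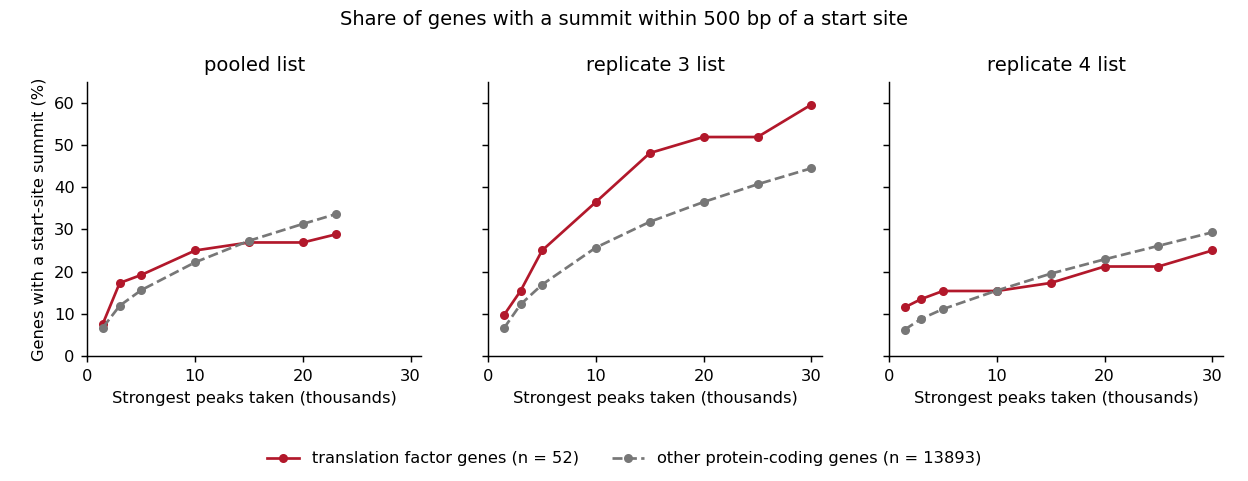
Share of genes (%) that have a start-site summit as more of the strongest peaks of each list are taken (x axis in units of 1000 peaks), for the 52 factor genes (solid) and the 13893 other protein-coding genes (dashed). Factor genes lie above the others at each point drawn for replicate 3, while the lines cross in the pooled list and in replicate 4.

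Among their strongest peaks, both replicates held similar numbers of factor genes. Over the 1445 strongest peaks of each list, start-site summits were found at 9.62% of factor genes and 6.51% of other genes in replicate 3, and at 11.5% and 6.23% in replicate 4. With gene bodies included, these parts of the 2 lists shared 5 genes, with eIF3h as a sixth in replicate 3 and eIF1 as a sixth in replicate 4. Over the 15000 strongest, the shares in replicate 3 were 48.1% of factor genes and 31.8% of other genes. In replicate 4 they were 17.3% of factor genes (9 of 52) and 19.5% of other genes, a gap of about 1 gene. In the pooled list they were 26.9% of factor genes and 27.3% of other genes at 15000 peaks. At 3000 peaks of the pooled list they were 17.3% (9 of 52) and 11.9%.

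Where a start-site summit was found, it lay mostly upstream. The 4 IDR summits at factor start sites were all upstream, with a median of −95 bp, against 88.7% upstream and a median of −163 bp over the 987 gene and summit pairs of other genes. In replicate 4 all 13 summits at factor start sites were upstream (median −160 bp), against 68.2% for other genes. In replicate 3, 24 of 38 were upstream (63.2%), against 66.4% for other genes. Each offset is to the nearest start site of the gene, so a summit between 2 start sites can count as upstream. For eIF2A the replicate 3 summit at 94 bp and the replicate 4 summit at −55 bp are measured from different start sites.

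**Figure D3:**
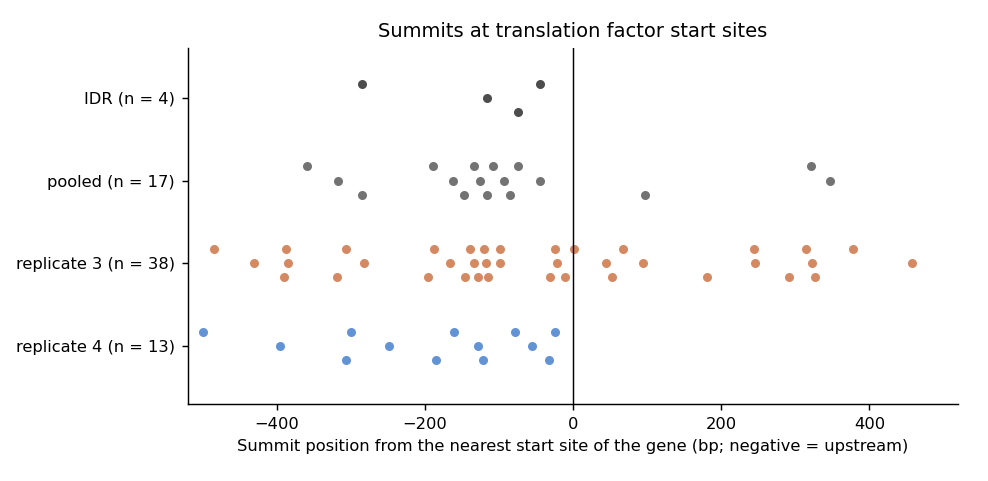
Position of each summit within 500 bp of a factor gene's start site, in bp from the nearest start site of that gene (negative is upstream), for the IDR, pooled and replicate lists, with points spread vertically for legibility only. The 13 summits of replicate 4 all lie upstream, while 24 of the 38 of replicate 3 do.

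Most factor genes are short, with a median length of 1955 bp, against 2167 bp for other protein-coding genes, and 47 of 52 are under 10 kb. Both factor genes of 30 kb or more, eIF4EHP at 45884 bp and eIF5B at 32320 bp, had an IDR summit, against 28.0% of the 661 other genes of that length. Among factor genes under 10 kb the share was 3 of 47 (6.38%), against 6.94% of other genes under 10 kb. For genes under 2 kb it was 2 of 28 (7.14%), against 4.22% of the others. From 2 to 5 kb it was 1 of 16 (6.25%), against 9.29%. None of the 3 factor genes from 5 to 10 kb or the 3 from 10 to 30 kb had an IDR summit, so the shares rest on very few genes.

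**Figure D4:**
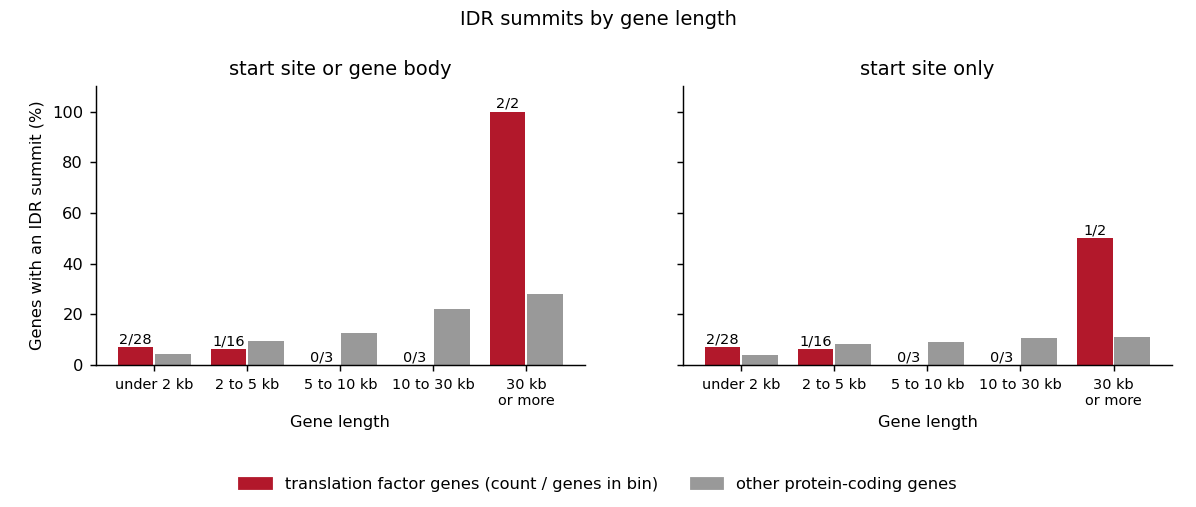
Share of genes (%) with an IDR summit by gene length, counting start sites and gene bodies (left) or start sites only (right), with the count of factor genes over the number in the bin above each red bar. The bin of 30 kb or more holds 2 factor genes, eIF4EHP and eIF5B, and the bins from 5 to 30 kb hold 3 each with no IDR summit.

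The 2 long genes also carried many summits outside the IDR list. The body of eIF5B held 15 pooled summits, or 4.64 per 10 kb, against a median of 1.64 per 10 kb in the 661 other genes of 30 kb or more, of which 8 (1.21%) were as dense. In the replicate lists it held 17 summits in replicate 3 and 15 in replicate 4, and 6 of each had a partner within 200 bp in the other replicate. A summit density as high was reached by 5.60% of the other long genes in replicate 3 and 2.12% in replicate 4. The body of eIF4EHP held 13 pooled summits, 2.83 per 10 kb, a density that 18.6% of the other long genes reached, and its density was reached by 16.9% of them in replicate 3 and 32.5% in replicate 4. Its 18 summits in replicate 3 and 14 in replicate 4 had 3 partners each. Inside the gene, the best replicate 3 rank in eIF4EHP was 2849 and the best replicate 4 rank 3730. In eIF5B the intron peak led, and most other summits matched no summit of the other replicate.

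**Figure D5:**
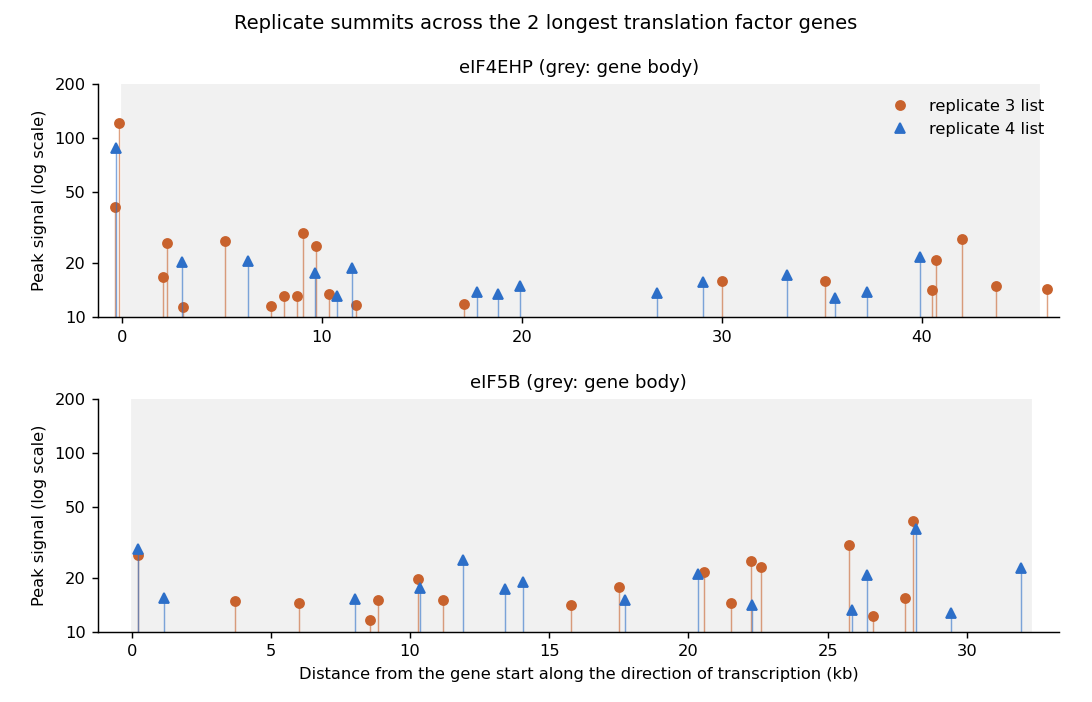
Signal (log scale) of each replicate 3 summit (circles) and replicate 4 summit (triangles) across eIF4EHP and eIF5B, by distance in kb from the gene start along the direction of transcription. In eIF4EHP the upstream summits, at 121 and 88.2, stand above the rest, and in eIF5B the highest pair (41.7 and 37.3) lies about 28 kb into the gene.

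A sequence element that the choice by name did not use was found in some of the factor promoters. From 250 bp before to 50 bp after the first start site, TATCGATA was found in 14 of 52 factor promoters (26.9%), against 9.30% of other protein-coding promoters. CGATA, which also lies inside each TATCGATA and is the short site of the boundary protein BEAF-32, was in 63.5% of factor promoters, against 47.4% of others. The 12 promoters with TATCGATA that can be printed are shown to let the sites be compared. Each line gives 30 bases around the TATCGATA nearest to the first start site, 5′ to 3′ on the strand of the gene, with the element in capitals.
eEF1delta: gatggcgtagaTATCGATAtacctgcattc
eEF1gamma: ggcctaggaaaTATCGATAtatcgccgtaa
eIF1A: atgatgatagaTATCGATAgctttagcggt
eIF2Bbeta: cgcctgccgccTATCGATAacattgctcgg
eIF2alpha: acgcaattaaaTATCGATAacaccactgtc
eIF2gamma: gattagagcacTATCGATAggcattgtcgg
eIF3a: tcggcctgaacTATCGATAacgcagccagg
eIF3f1: cccacccgcacTATCGATAggcccttttct
eIF3l: agtagtatcatTATCGATAgttggtcacac
eIF4A: ggcgatcgatcTATCGATAgtcgctaatgt
eIF4B: cccgaaataaaTATCGATAacgatatagga
eIF4E6: atcacgcgataTATCGATAtgtttcgattg
These windows, on dm6 and in the same order, are chr2L:10232467-10232496 (plus), chr3R:29220120-29220149 (plus), chr3R:18274452-18274481 (plus), chrX:2704588-2704617 (plus), chrX:16446988-16447017 (minus), chr3R:15263449-15263478 (minus), chr3R:4433915-4433944 (minus), chr3R:4714172-4714201 (minus), chr3L:12146097-12146126 (minus), chr2L:5981701-5981730 (plus), chr3L:27858272-27858301 (minus) and chr3R:29027214-29027243 (minus). The element started upstream of the first start site in 11 of the 12, with a median of −24 bp and a range from −202 to 28 bp. Outside the element the lines differ.

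Of the 4 factor genes with an IDR summit at a start site, eEF1gamma, eIF3c and eIF6 have TATCGATA in the promoter and eIF4EHP does not. That is 3 of the 14 factor genes with the element (21.4%) and 1 of the 38 without it (2.63%). For other genes the shares with a start-site IDR summit were 7.82% with the element and 6.63% without it. In replicate 3, 11 of the 14 had a start-site summit (78.6%) and 20 of the 38 (52.6%), against 60.0% and 42.9% of other genes. In replicate 4 the counts were 3 of 14 (21.4%) and 10 of 38 (26.3%), against 27.0% and 29.5% of other genes, so the order seen in replicate 3 was not seen there. In the pooled list the counts were 4 of 14 (28.6%) and 11 of 38 (28.9%), against 41.9% and 32.8% of other genes, so there too the factor genes with the element did not lead. Only in eEF1gamma did the element lie within 100 bp of the IDR summit, and 1.31% of all IDR windows hold it.

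The other motifs are given as a description, without a test. In the promoters, searched on both strands, CANCNCTA (a form of Ohler motif 7) was found in 26.9% of factor genes and 15.6% of others, and GAGAG (bound by Trithorax-like) in 15.4% and 29.9%. GCCAT (a Pho site) was in 51.9% of factor promoters and 41.3% of others, TAATTA (a homeodomain site) in 28.8% and 20.5%, and TATAAA (the TATA box) in 44.2% and 45.9%. CACGTG (an E-box) was in 7.69% and 4.23%, GGTCACACT (Ohler motif 1) in 5.77% and 6.05%, and AGNNGGCGC (a loose CTCF core) in 3.85% and 2.82%. CTTT, the core of the TCT initiator known from ribosomal protein genes, started within 5 bp of a start site on the sense strand in 7 of 52 factor genes (13.5%), against 8.05% of others. None of those 7 genes, among them eEF1alpha1, eEF2 and eIF4A, had an IDR summit, against 14.2% of the other genes with it. Within 100 bp of the 5 factor IDR summits, CGATA was in 3 of 5 windows (23.0% of all IDR windows), TATAAA in 2 of 5 (34.3%) and TAATTA in 2 of 5 (16.5%). CANCNCTA (8.86% of all), GAGAG (23.5%) and GCCAT (29.7%) were in 1 of 5 each, and CACGTG (1.45%), GGTCACACT (0.761%) and AGNNGGCGC (3.60%) in 0 of 5.

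Regulators of translation outside the eIF and eEF names were listed for context, and 35 of 36 symbols were matched. The list was drawn from general knowledge, with earlier results of these data known, so its shares are a description only. An IDR summit was found at 6 of the 35 (17.1%, interval 6.56 to 33.6), against 9.36% of the other protein-coding genes, a background that holds these 35 as well. These genes are long, with a median of 6828 bp, and 4 of the 6 had the strongest IDR summit in the gene body. The background takes in genes of all lengths. Among genes outside the eIF and eEF names, 12.5% from 5 to 10 kb and 22.0% from 10 to 30 kb had an IDR summit. At start sites the count was 2 of 35 (5.71%), against 6.74%. The repressor gene brat had 5 IDR summits, the strongest with a pooled signal of 928 (rank 31). Lk6, the kinase of eIF4E, had a pooled signal of 375 in the gene body, larp, the LARP1 gene, 333 at −333 bp from a start, and Sxl, a repressor of msl-2 translation, 319 at 308 bp from a start. Paip2, an inhibitor of the poly(A)-binding protein, had 75.7, and the repressor gene pum had 67.0. The kinase gene mTor ranked 1478 in the pooled list, with a signal of 65.6, and so fell outside the IDR list.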

How the data were processed

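Chromatin from embryos of the CG15073-GFP line, sheared to 200 to 800 bp, was analysed from 4 dm6 peak lists deposited by the authors: 1 IDR list, 1 pooled relaxed list and 1 relaxed list per replicate. Per the texts deposited beside them, the relaxed lists derive from alignments and a further input, and the IDR list from the relaxed lists. Which aligner, peak caller and IDR threshold were used, and how deep the libraries are, is not given in the sources used here. The deposited signal, with no stated scale, ranked the peaks within each list, and signals are not compared as amounts between lists. The deposited −log10 q-value was used in an alternative ranking only. The 4 dm3 lists were not analysed, since no dm3 annotation was used here. The IDR peaks make up the top 1445 of the pooled list.

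Genes and start sites came from Ensembl release 115 (BDGP6.54) without transposable element insertions, and sequence from the Release 6 assembly, whose arms contain every peak end. Positions are 1-based. Python 3.11.15, numpy 2.4.6 and scipy 1.17.1 were used. Summits were assigned as stated in the results, and the assignment was tested on simulated data, where 200 of 200 planted summits were recovered over 13945 genes. Summits within 200 bp were taken as partners. Shares have exact 95% binomial intervals. No test was made, since there is 1 group and genes are not replicates. Motifs and the list of regulators were taken from general knowledge. The members and lists were chosen with earlier results of these data known. Every gene with an IDR summit is named with its values, the 10 best-ranked genes with a pooled summit only are named, and so is every gene with no summit in any list. Other genes were named after their values were seen, to show how relatives of these genes differ. Alternatives were other start-site distances, a stronger part of the IDR list, peak intervals, nearest start sites, each replicate alone, gene length, rank columns and symbol case.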

Additional observations from a re-analysis of the deposited data

How the results depend on the processing

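No paired analysis was possible because there is 1 group of samples. Of 46 values recomputed for the counts and median ranks, 37 stayed within the limits set for them. These are 1.5 times for a count and the spread between the replicates for a median rank. The limit for median ranks was wide, since the replicate medians were 8007 and 2835. The replicate 4 median went from 2835 to 1577 with start sites only and still counted as within it. In the stronger 722 IDR peaks, 2 factor genes (3.85%) kept a summit, eIF4EHP and eIF6, both at start sites. Of other genes, 713 (5.13%) had one with start sites and gene bodies, and 509 (3.66%) with start sites alone. With summits given to the nearest start site only, 2 factor genes (3.85%) were left with either window. The shares of other genes were 6.52% with gene bodies and 4.78% with start sites alone. Among genes under 10 kb, a choice made after the data were seen, 3 factor genes (6.38%) and 827 other genes (6.94%) had an IDR summit. In the 1445 strongest peaks of each replicate alone, 6 factor genes (11.5%) had a summit in either case, and 5 to 6 (9.62% to 11.5%) had a start-site summit. Other genes numbered 1267 to 1272 there (9.12% to 9.16%), and 865 to 905 at start sites (6.23% to 6.51%). In the whole relaxed list of 1 replicate, 17 factor genes (32.7%) had a summit without replicate 3, against 48.7% of other genes. Without replicate 4 it was 35 (67.3%), against 59.5%. The cause of these changes was not tested, apart from the smaller number of peaks or genes that some settings take. With a distance of 1000 bp, eIF2Bbeta joined as a sixth gene, and with 250 bp eIF4EHP was lost. Read depth is unknown and limits what the lists can show.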
